A study of Mus musculus with 9 samples.

Results

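The genes described here are 50 regulators of chromatin, taken from the 49585 rows of the count table by their gene symbols. They comprise 6 DNA methylation genes, 6 members of Polycomb repressive complex 2 (PRC2), 14 of Polycomb repressive complex 1 (PRC1), 3 of the Polycomb deubiquitinase PR-DUB, 11 lysine methyltransferase genes (with the cofactor Men1), 7 lysine demethylases and 3 acetyltransferases. All 50 had a row, and all 50 had enough reads to be among the 11619 genes tested, so no member was lost to the filter on low counts. Summed over all libraries, a member had between 195 (Cbx8) and 40982 counts.

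The RNA came from mouse haematopoietic stem cells (HSCs) that had been expanded in culture and then re-sorted by surface phenotype. Wild-type C57BL/6 bone marrow cells with the CD34-CD150+KSL phenotype (KSL stands for Kit positive, Sca-1 positive, lineage negative) were grown in F12 medium with 0.1% polyvinyl alcohol, insulin-transferrin-selenium, thrombopoietin at 100 ng/ml and SCF at 10 ng/ml. Over 5000 cells were sorted for each of 3 populations, with 3 replicates per population and 9 bulk RNA-seq libraries in all. The populations were CD201+CD150+CD48-KSL cells (CD201+CD48- below), CD201+CD150+CD48+KSL cells (CD201+CD48+ below) and CD201-KSL cells (CD201- below).

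All 3 populations share strain, genotype, starting cell type and medium, and differ by the sort gate. The study's text gives 10 days of culture in one place and a week in another. In their titles the CD201- samples carry a CD150+CD48+ gate that their other labels lack. Nothing in the labels ties replicates to separate cultures or mice, so the p-values cover the spread among these libraries alone, and that spread may be technical. The labels used here do not give the age of the mice.

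Polycomb proteins keep genes silent in a heritable way. PRC2 methylates a lysine of histone H3 through its catalytic subunit Ezh1 or Ezh2, and PRC1 carries Cbx proteins that read this mark together with Ring1 or Rnf2, which ubiquitinate histone H2A; PR-DUB removes that ubiquitin. DNA methyltransferases copy (Dnmt1) or newly place (Dnmt3a, Dnmt3b) methyl groups on CpG dinucleotides and Tet enzymes oxidise them, while Kmt2a (MLL1) and its relatives mark active genes. In blood, Dnmt3a, Tet2, Asxl1, Ezh2 and Kmt2a are known for recurrent mutation or rearrangement in leukaemia, and Bmi1 and Kmt2a for their need in HSC self-renewal.

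Total counts ranged from 3810123 to 7072885 per library, and the 50 members took 0.892% to 0.999% of them. Transcripts of the sort antigens CD201 and CD48 followed the gates. Procr, which encodes CD201, was at 59.6 to 67.1 CPM (counts scaled to a common library size) in CD201+CD48-, 24 to 28.1 in CD201+CD48+ and 2.41 to 4.52 in CD201- libraries. Cd48 was at 5.09 to 6.32, 75 to 88 and 119.8 to 127.5 CPM. With Slamf1, Kit and Ly6a, the sort antigen genes numbered 5. In CD201+CD48- against CD201- cells 4 of them were higher and 1 lower in the test described below, against 24.2% and 23.9% of all genes. The populations were sorted by CD201 and CD48, so the calls of Procr and Cd48 are no independent result. Procr was also higher in CD201+CD48- than in CD201+CD48+ libraries, although both share the CD201+ gate. CD201- replicate 3 stood apart from its group: 531 of the 11619 genes differed by over 2-fold between it and the mean of CD201- replicates 1 and 2, against 187 between those replicates. Of the 50 members, none did so, but 15 differed by over 1.2-fold, against 2 of 50 between replicates 1 and 2. Of all 11619 genes, 5618 and 2673 differed by over 1.2-fold in these same 2 contrasts. Counts of genes that were higher or lower in the test are therefore given with and without that library for the members and each role. The same holds for the lists of S phase, other pathway and target genes. B and T cell markers summed to at most 1.51 CPM (Ms4a1, Cd3e and Cd3g at 0 counts in all) and dendritic cell and macrophage markers to at most 2.06 CPM in any library.

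Some of the regulators carry in their promoters the sequence that E2F factors, which drive genes of the cell cycle, are known to bind. A RefSeq promoter window (GRCm38.p6, the assembly of mm10, 250 bases before to 50 after the start) was matched for 44 of the 50 members. Positions count from the start site of that window, which can lie inside the outer bounds of the gene (for Dnmt1, chromosome 9, 20907206 to 20959888). The 8-base forms TTTCCCGC, TTTCGCGC, TTTGCCGC and TTTGGCGC were searched on both strands; they overlap in their letters and were chosen after the expression results were known. They occurred in 4 of the 44 members (9.09%), namely Ezh2, Dnmt1, Suz12 and Suv39h1, against 4.9% of 8936 tested genes with a window and 2.26% of all 32851 windows. The stretches that hold a match are shown because these 4 genes are among the members that were lower in the CD201+CD48- libraries below. A match describes letters and is not a measured binding site. Each stretch reads 5′ to 3′ along the gene with the match in capitals.
Ezh2 (chr6:47595009-47595038, minus strand, bases -8 to 22 from the start): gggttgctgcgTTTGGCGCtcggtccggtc
Dnmt1 (chr9:20952824-20952853, minus strand, bases -230 to -201): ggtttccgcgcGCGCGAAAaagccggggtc
Dnmt1 (chr9:20952574-20952603, minus strand, bases 21 to 50): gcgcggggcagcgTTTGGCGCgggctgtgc
Suz12 (chr11:79992856-79992955, plus strand, bases -250 to -151): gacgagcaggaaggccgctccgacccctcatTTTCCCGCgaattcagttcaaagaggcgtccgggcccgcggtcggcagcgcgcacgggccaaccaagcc
Suv39h1 (chrX:8074381-8074480, minus strand, bases -119 to -20): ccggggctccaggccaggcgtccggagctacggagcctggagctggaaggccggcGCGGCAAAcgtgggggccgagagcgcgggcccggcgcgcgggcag

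CpG is the dinucleotide that DNA methyltransferases and Tet enzymes act on. The median promoter window of the 44 members held 30 CpG, against 22.0 over the tested genes and 8.0 over all genes with a window. Kmt2a and Tet1 were higher in CD201+ cells, and a stretch before the start site of each matched window is printed with every CpG in capitals. The Tet1 stretch lies inside the outer bounds of its gene (62804570 to 62887469), and the Kmt2a stretch overlaps those of its gene (44803355 to 44881352).
Kmt2a (chr9:44881340-44881439, minus strand, bases -150 to -51): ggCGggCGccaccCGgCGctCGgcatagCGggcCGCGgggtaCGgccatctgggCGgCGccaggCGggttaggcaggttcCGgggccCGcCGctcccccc
Tet1 (chr10:62887325-62887412, minus strand, bases -88 to -1): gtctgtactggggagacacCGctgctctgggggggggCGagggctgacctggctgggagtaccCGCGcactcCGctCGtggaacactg
The Kmt2a stretch held 15 CpG in 100 bases and the Tet1 stretch 6 in 88.

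CD201+CD48- cells, the phenotype that enriches for HSCs, were first compared with CD201- cells. Of the 50 members, 9 were higher in CD201+CD48- cells (Cbx7, Tet1, Phc1, Kmt2a, Cbx6, Kdm6b, Kdm5b, Ezh1 and Phc3) and 10 were lower (Ezh2, Dnmt1, Suz12, Dot1l, Mtf2, Suv39h1, Setdb1, Nsd1, Jarid2 and Ehmt1), at an adjusted p under 0.05 in edgeR's quasi-likelihood test with Benjamini-Hochberg adjustment over all genes. This is 38.0% of the members, against 48.1% of all genes tested (24.2% higher and 23.9% lower). The median log2 fold change of the members was -0.03, and that of all genes 0.00. Without CD201- replicate 3 the counts were 13 higher and 10 lower, against 51.7% of all genes (25.6% and 26%): Dnmt3a, Bmi1, Pcgf2 and Crebbp were then also higher and Tet3 lower, and the call of Ehmt1 was lost. When counts were scaled by library size alone, the split was 19 higher and 5 lower; that scaling moved the median of all genes up by 0.17 on the log2 scale.

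In the comparison of CD201+CD48+ with CD201- cells, 7 members were higher (Cbx7, Tet1, Kmt2a, Phc1, Pcgf5, Kdm5b and Phc3) and 4 lower (Dnmt1, Jarid2, Ezh2 and Suz12), 22.0% of the members against 29.1% of all genes tested (14.8% higher, 14.3% lower). The medians were -0.01 and -0.00. Leaving out CD201- replicate 3 gave 12 higher and 8 lower members, against 36% of all genes (18% and 17.9%), with Ezh1, Cbx6, Kmt2c, Crebbp and Kat6a added to the higher and Tet3, Kmt2d, Dot1l and Setdb1 to the lower members. Leaving out CD201+CD48+ replicate 3 gave 4 higher members, with 1265 of 11795 genes higher. Scaling by library size alone gave 12 higher and 4 lower, with the median of all genes 0.134 higher. These 2 comparisons share the CD201- libraries, so they are not independent of each other.

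Between the CD201+ populations, only 6 members passed: Kdm6b and Phc1 were higher and Mtf2, Ezh2, Suz12 and Dot1l lower in CD201+CD48- than in CD201+CD48+ cells. This is 12% of the members, against 15.4% of all genes (9.05% higher, 6.31% lower), with medians of 0.01 and -0.01. This comparison is also the direct test of whether the 2 differences from CD201- cells differ. Of the 6 calls, that of Mtf2 held under every alternative tried, and leaving out single libraries gave 0 to 4 higher and 1 to 8 lower members. The counts without CD201- replicate 3, which is in neither of these groups but enters the fit, were 4 and 8, against 30% of all genes (15.4% and 14.5%), with Kmt2a and Phc2 added to the higher and Dnmt1, Nsd1, Setdb1 and Pcgf5 to the lower members. In all 3 comparisons, 30 of the 50 members passed in none.

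Most differences of the members were under 1.5-fold. In CD201+CD48- against CD201- cells, 84% of members lay within 1.5-fold, against 71.9% of all genes tested, and 1 of 50 reached 2-fold (Cbx7), against 12.6% of all genes. In CD201+CD48+ against CD201- cells 96% were within 1.5-fold (83.6% of all genes), and between the CD201+ populations 100% were (90.1%). Cbx7 was again the one member at 2-fold in CD201+CD48+ against CD201- cells (7.31% of all genes), and 0 reached it between the CD201+ populations (4.1%). Replicate ranges did not overlap for 21, 15 and 21 of the 50 members in the order of these comparisons, against 55.2%, 41.7% and 40.7% of all genes.

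**Figure D1:**
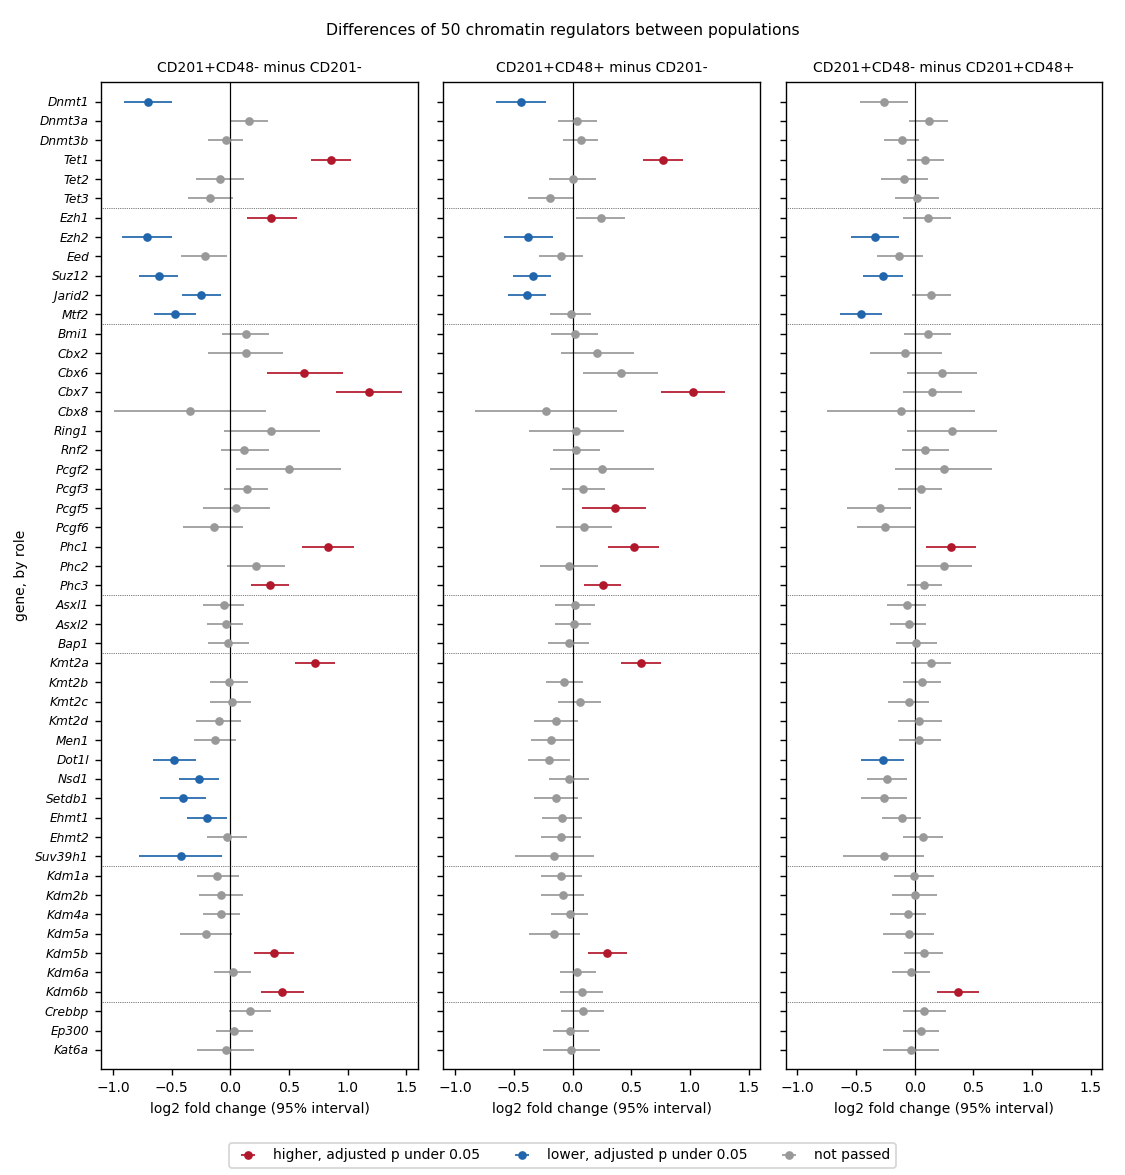
Log2 fold change of each of the 50 regulators (x axis) in the 3 comparisons, with 95% intervals from the quasi-likelihood fit, genes on the y axis in blocks by role (DNA methylation, PRC2, PRC1, PR-DUB, methyltransferases, demethylases, acetyltransferases, top to bottom). Cbx7 lies farthest to the right at 1.18 and 1.03, the PRC2 block lies mostly to the left, and the 3 PR-DUB genes sit at 0 in every panel.

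Genes of DNA replication also differed between the populations. Of 25 genes of S phase, 25 passed as lower for CD201+CD48- against CD201- cells (median log2 fold change -0.77), 17 for CD201+CD48+ against CD201- cells (median -0.32) and 22 for CD201+CD48- against CD201+CD48+ cells (median -0.41). Of all genes 23.9%, 14.3% and 6.31% were lower. Without CD201- replicate 3 the lower counts were 25, 17 and 24, against 26%, 17.9% and 14.5% of all genes. The summed level of the S phase genes was 3319 to 3380 CPM in CD201+CD48-, 4428 to 4525 in CD201+CD48+ and 5480 to 6181 in CD201- libraries, with no gene of the list at 0. All members that were lower in CD201+CD48- against CD201- cells had the same order of group means, except Jarid2, which was lowest in CD201+CD48+ libraries. Among the members that did not pass, Eed, Kdm5a, Tet2, Cbx8, Kdm1a, Kdm2b, Kdm4a and Kat6a had that order too. The ranges of CD201+CD48+ and CD201- libraries overlapped for Mtf2, Nsd1, Setdb1, Ehmt1 and Suv39h1. The part of S phase in the differences of these members was not tested.

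Markers of blood lineages also moved with the groups. The 12 neutrophil and monocyte markers summed to 15.9 to 21.7, 19.6 to 20.5 and 26.7 to 37.7 CPM in CD201+CD48-, CD201+CD48+ and CD201- libraries, with S100a9, Ly6g and Fcnb at 0 counts in all. The 9 mast cell and basophil markers summed to 5.09 to 9.35, 2.89 to 4.61 and 35.9 to 44 CPM (Mcpt4, Tpsb2 and Cma1 at 0 counts throughout), and the 8 megakaryocyte markers to 583.1 to 605.1, 129.1 to 139.1 and 408.1 to 470.3 CPM with none at 0. Erythroid markers (8 genes) summed to 196.3 to 221.4, 135.7 to 147.8 and 50 to 92.5 CPM with Hba-a1 and Car1 at 0, endothelial and stromal markers (8 genes) to 96.5 to 99.4, 57.2 to 70.6 and 42.3 to 44.8 CPM with none at 0, and HSC markers (10 genes, of which Hoxb5 was at 0 in CD201- libraries) to 2818 to 2928, 1662 to 1718 and 1269 to 1282 CPM. Their part in the results below was not tested, and in bulk RNA fewer cells of a type and less RNA per cell cannot be told apart.

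**Figure D2:**
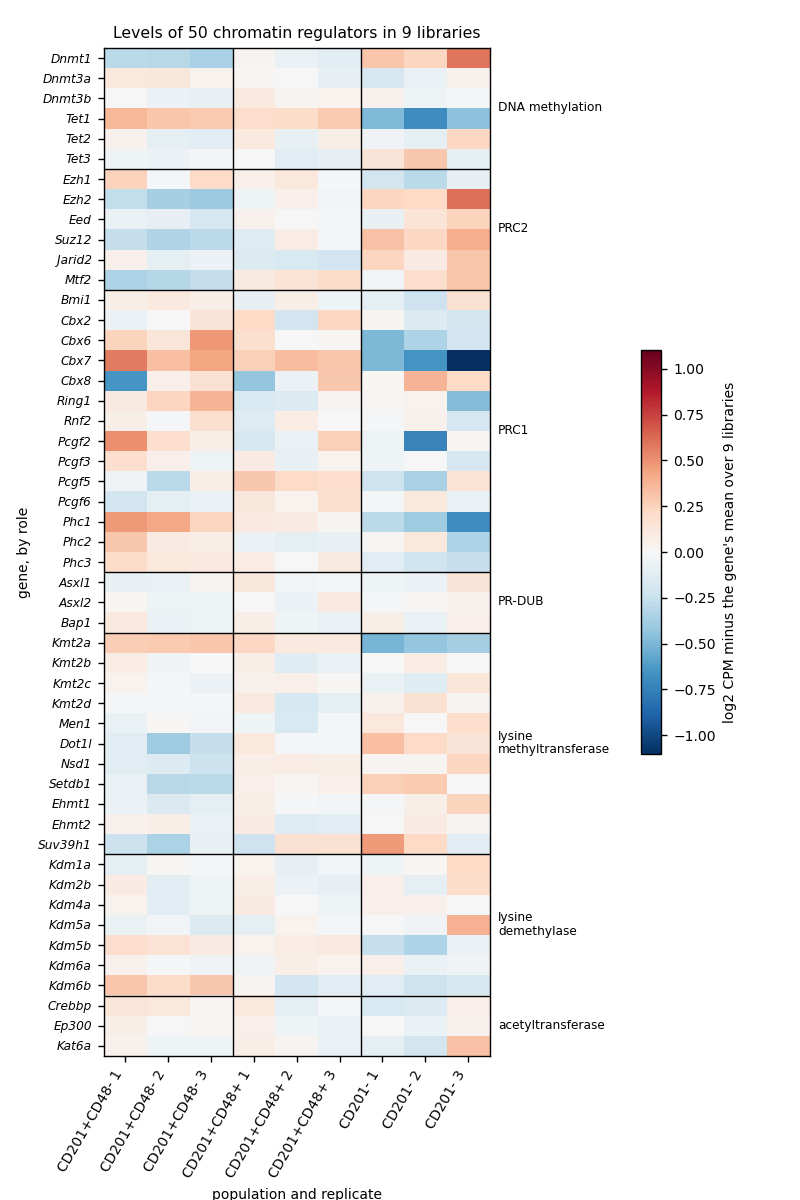
Level of each of the 50 regulators (rows, by role) in each of the 9 libraries (columns), as log2 CPM minus the mean of that gene over the 9 libraries. Tet1, Cbx7, Phc1 and Kmt2a are red in CD201+ and blue in CD201- libraries, Dnmt1, Ezh2 and Suz12 show the reverse, and most rows are pale throughout.

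Among the DNA methylation genes, the maintenance methyltransferase was lower and one of the 3 Tet dioxygenases was higher in CD201+ cells. Against CD201- cells 1 of 6 genes was higher and 1 lower in each CD201+ population, and 0 of 6 passed between the CD201+ populations. Over all genes 24.2% and 23.9% passed as higher and lower in CD201+CD48- against CD201- cells, 14.8% and 14.3% in CD201+CD48+ against CD201- cells, and 15.4% in either direction between the CD201+ populations. The medians were -0.06, 0.02 and -0.03, against 0.00, -0.00 and -0.01 over all genes. Without CD201- replicate 3 the counts were 2 higher and 2 lower, 1 and 2, and 0 and 1. The shares of all genes were then 25.6% and 26%, 18% and 17.9%, and 15.4% and 14.5%. Tet1 (chromosome 10, 62804570 to 62887469), which oxidises methylated cytosine, was at 156.4, 150.1 and 148.6 CPM in CD201+CD48- libraries, 138.7, 140.2 and 148.1 in CD201+CD48+ libraries and 87, 75.1 and 88.8 in CD201- libraries. Every CD201+ library lay above every CD201- library. Its log2 fold change was 0.86 ± 0.08 (SE, adjusted p = 4.62e-07) in CD201+CD48- and 0.77 ± 0.08 (adjusted p = 4.92e-06) in CD201+CD48+ against CD201- cells. Against CD201+CD48+ cells, CD201+CD48- cells had 0.09 (95% interval -0.07 to 0.25, adjusted p = 0.472).

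Dnmt1 (chromosome 9, 20907206 to 20959888), which restores methylation after replication, had the reverse order. It was at 710.4, 706.9 and 681.9 CPM in CD201+CD48-, 893.2, 830.2 and 798.9 in CD201+CD48+ and 1077, 1028 and 1316 in CD201- libraries. No group overlapped another, and CD201- replicate 3 was the highest library. The log2 fold changes were -0.70 ± 0.10 (SE, adjusted p = 2.63e-05) and -0.44 ± 0.10 (adjusted p = 0.00326) against CD201- cells, and -0.59 and -0.32 without CD201- replicate 3. Between the CD201+ populations the value was -0.26 (95% interval -0.47 to -0.06, adjusted p = 0.0803), and without CD201- replicate 3 it was -0.27 with an adjusted p of 1.42e-05; over all 17 alternatives that adjusted p ran from 1.42e-05 to 0.237.

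The de novo methyltransferases and the other Tet genes did not pass in any comparison. Dnmt3a was at 205.2 to 217.3, 187.5 to 202.1 and 175.7 to 205.8 CPM in CD201+CD48-, CD201+CD48+ and CD201- libraries, and Dnmt3b at 214.5 to 227.2, 231.5 to 245.5 and 218.0 to 235.3 CPM. The ranges of both genes overlapped between each CD201+ population and CD201- cells. For Dnmt3a in CD201+CD48- cells that overlap was with CD201- replicate 3 alone (205.8 CPM). Against CD201- cells, the CD201+CD48- value of Dnmt3a was 0.16 on the log2 scale (95% interval -0.00 to 0.32, adjusted p = 0.0994) and that of Dnmt3b -0.04 (-0.19 to 0.11). Tet3 was at 179.4 to 183.8, 173.1 to 188.6 and 175.5 to 231.3 CPM, with log2 fold changes of -0.17 (-0.36 to 0.02) and -0.19 (-0.38 to 0.00) against CD201- cells; Tet2, a frequent target of mutation in clonal haematopoiesis, had -0.09 (-0.29 to 0.12) and -0.00 (-0.20 to 0.20).

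Among the PRC2 genes Ezh2, Suz12, Jarid2 and Mtf2 were lower and Ezh1 higher in CD201+CD48- than in CD201- cells. That is 4 of 6 lower and 1 higher (median -0.36), against 23.9% and 24.2% of all genes. In CD201+CD48+ against CD201- cells 3 were lower and 3 did not pass (median -0.22, 14.3% of all genes lower), and between the CD201+ populations 3 were lower in CD201+CD48- and 3 did not pass (median -0.20, 6.31% of all genes lower). The lower counts were again 4, 3 and 3 without CD201- replicate 3, when 26%, 17.9% and 14.5% of all genes were lower. Ezh2 (chromosome 6, 47530274 to 47595270), the catalytic subunit typical of dividing cells, was at 207.3, 194.0 and 189.7 CPM in CD201+CD48-, 241.6, 259.9 and 244.9 in CD201+CD48+ and 295.0, 292.2 and 381.1 in CD201- libraries. The groups did not overlap, and the highest value was again that of CD201- replicate 3. Its log2 fold changes were -0.71 ± 0.10 (SE, adjusted p = 2.50e-05) and -0.38 ± 0.10 (adjusted p = 0.00847) against CD201- cells. For CD201+CD48- against CD201+CD48+ cells it was -0.34 ± 0.10 (adjusted p = 0.0288). The last call was lost in 7 of 17 alternatives, among them leaving out any single CD201+ library, with adjusted p over the alternatives from 9.82e-07 to 0.123.

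Suz12 (chromosome 11, 79993106 to 80034123), a core subunit that PRC2 needs for activity, was at 196.7, 187.0 and 192.8 CPM in CD201+CD48-, 214.2, 248.7 and 233.0 in CD201+CD48+ and 295.0, 276.7 and 311.4 in CD201- libraries. The groups again did not overlap. Log2 fold changes were -0.61 ± 0.08 (SE, adjusted p = 1.34e-05), -0.34 ± 0.08 (adjusted p = 0.00394) and, between the CD201+ populations, -0.27 ± 0.08 (adjusted p = 0.0288). The last call was lost in 6 of 17 alternatives, among them without CD201+CD48- replicate 1, 2 or 3 or CD201+CD48+ replicate 2 or 3 (adjusted p up to 0.134 and down to 9.47e-05 over the alternatives). Eed, the subunit that reads the mark PRC2 makes, was at 66.9 to 72.6, 75.4 to 78.6 and 71.9 to 90.1 CPM and passed in none, with a CD201+CD48- value of -0.22 against CD201- cells (95% interval -0.42 to -0.03, adjusted p = 0.0534).

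The accessory subunits Mtf2 and Jarid2, which help bring PRC2 to chromatin, differed in which population was low. Mtf2 (chromosome 5, 108065660 to 108109219) was at 127.1, 129.6 and 133.7 CPM in CD201+CD48- libraries, 172.0, 178.4 and 184.7 in CD201+CD48+ libraries and 157.6, 183.5 and 199.2 in CD201- libraries. CD201+CD48- cells lay below both other groups, which overlapped. The log2 fold change of CD201+CD48- cells was -0.47 ± 0.09 (SE, adjusted p = 3.29e-04) against CD201- and -0.46 ± 0.08 (adjusted p = 0.00181) against CD201+CD48+ cells, whereas CD201+CD48+ against CD201- cells gave -0.01 (95% interval -0.19 to 0.16, adjusted p = 0.921). Jarid2 was at 152.4, 136.4 and 140.6 CPM in CD201+CD48-, 131.9, 130.8 and 126.7 in CD201+CD48+ and 172.4, 156.4 and 181.5 in CD201- libraries, so CD201+CD48+ cells were lowest. Its log2 fold change was -0.39 ± 0.08 (adjusted p = 0.00149) in CD201+CD48+ and -0.25 ± 0.08 (adjusted p = 0.0151) in CD201+CD48- against CD201- cells; the second call was lost without CD201+CD48- replicate 2 or 3 and with library size alone. Its value of 0.14 between the CD201+ populations did not pass (95% interval -0.02 to 0.31, adjusted p = 0.244).

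Ezh1, the paralogue of Ezh2 that non-dividing cells are known to use, moved the other way. It was at 62.5, 51.5 and 60.7 CPM in CD201+CD48- libraries, 54.3, 56.7 and 51.8 in CD201+CD48+ libraries and 45.6, 42.6 and 49.1 in CD201- libraries. Both CD201+ groups lay above CD201- cells and overlapped each other. The log2 fold change was 0.35 ± 0.10 (SE, adjusted p = 0.0086) in CD201+CD48- against CD201- cells, a call lost without CD201+CD48- replicate 1. In CD201+CD48+ cells it was 0.24 (95% interval 0.03 to 0.45, adjusted p = 0.0752), and between the CD201+ populations 0.11 (-0.10 to 0.31, adjusted p = 0.503).

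Of 14 PRC1 genes, 4 were higher and 0 lower in each CD201+ population against CD201- cells (medians 0.18 and 0.16). The higher share of 28.6% stood beside 24.2% of all genes in CD201+CD48- and 14.8% in CD201+CD48+ cells, and the lower share of 0 beside 23.9% and 14.3%. In CD201+CD48- against CD201+CD48+ cells 1 was higher and 0 lower (median 0.10, with 9.05% and 6.31% of all genes). With CD201- replicate 3 left out there were 6, 5 and 2 higher and 0, 0 and 1 lower. Over all genes 25.6%, 18% and 15.4% were then higher and 26%, 17.9% and 14.5% lower. Cbx7 (chromosome 15, 79915804 to 79971143), a reader of the PRC2 mark associated with HSC self-renewal, showed the largest difference of the 50 genes. It was at 55.4, 47 and 50.5 CPM in CD201+CD48-, 44.8, 47.2 and 46.3 in CD201+CD48+ and 26.6, 23.7 and 17.5 in CD201- libraries. The CD201+ groups overlapped each other and lay well above CD201- cells, among which replicate 3 was lowest.

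The log2 fold changes of Cbx7 were 1.18 ± 0.13 (SE, 2.26-fold, adjusted p = 3.19e-06) and 1.03 ± 0.13 (2.04-fold, adjusted p = 3.09e-05) against CD201- cells, and 1.03 and 0.88 without CD201- replicate 3. The value between the CD201+ populations was 0.15 (95% interval -0.10 to 0.40, adjusted p = 0.441). Cbx7 overlaps the annotated gene Apobec3, and since use of strand is not stated, reads of the 2 genes may not be fully separated. Cbx6, another of the Cbx readers, was at 17.7, 16.4 and 20.8 CPM in CD201+CD48-, 16.9, 14.9 and 15.1 in CD201+CD48+ and 10.6, 11.8 and 12.9 in CD201- libraries. Every CD201+ library was above every CD201- library, with log2 fold changes of 0.63 ± 0.15 (adjusted p = 0.00298) in CD201+CD48- and 0.41 (95% interval 0.09 to 0.73, adjusted p = 0.055) in CD201+CD48+ cells. For the CD201+ populations against each other it was 0.23 (-0.07 to 0.53).

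Cbx2 and Cbx8 did not pass in any comparison. Cbx2 was at 16.3 to 22.1 CPM over all libraries and its log2 fold changes against CD201- cells were 0.13 (95% interval -0.19 to 0.45) and 0.21 (-0.10 to 0.52). Cbx8, the least abundant member, was at 2.65 to 5.38 CPM, and its intervals, -0.99 to 0.30 and -0.83 to 0.38, were the widest among the members.

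The Polyhomeotic genes encode the PRC1 subunits that polymerise and compact chromatin. Phc1 (chromosome 6, 122317731 to 122340227) was at 95.3, 92.5 and 81 CPM in CD201+CD48-, 74, 73.3 and 70 in CD201+CD48+ and 56.4, 52.5 and 42.7 in CD201- libraries. The 3 groups stood apart from each other, with CD201+CD48- cells highest. The log2 fold changes were 0.83 ± 0.10 (SE, adjusted p = 1.09e-05) and 0.52 ± 0.10 (adjusted p = 0.0017) against CD201- cells. CD201+CD48- against CD201+CD48+ cells gave 0.31 ± 0.10 (adjusted p = 0.045). The last of these calls was lost without CD201+CD48- replicate 1 or 2, without any one CD201+CD48+ library and in DESeq2 (adjusted p from 8.52e-04 to 0.198 over the alternatives).

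Phc3 was at 134.7, 126.8 and 126.0 CPM in CD201+CD48-, 124.0, 117.4 and 125.2 in CD201+CD48+ and 107.6, 100.5 and 98.4 in CD201- libraries. No group overlapped another, but the steps were smaller than for Phc1. Its log2 fold changes were 0.34 ± 0.07 (SE, adjusted p = 0.00132) and 0.26 ± 0.07 (adjusted p = 0.0146) against CD201- cells, the second lost without CD201+CD48+ replicate 3, and 0.08 (95% interval -0.07 to 0.23) between the CD201+ populations. Phc2, at 44.5 to 51.9, 39.1 to 40.5 and 33.3 to 45.8 CPM, did not pass, with 0.22 (-0.03 to 0.47), -0.03 (-0.28 to 0.22) and 0.25 (0.00 to 0.49). Between the CD201+ populations Phc2 passed without CD201- replicate 3 (0.24, adjusted p = 0.0377).

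The catalytic and Pcgf subunits of PRC1 gave few calls. The ubiquitin ligases Ring1 and Rnf2 had log2 fold changes of 0.35 (95% interval -0.05 to 0.76) and 0.12 (-0.08 to 0.33) in CD201+CD48- against CD201- cells, and neither passed in any comparison. Bmi1, the Pcgf subunit best known in HSCs, was at 116.3 to 120.0, 104.2 to 116.4 and 94.9 to 124.7 CPM, with 0.13 (-0.07 to 0.33), 0.02 (-0.18 to 0.22) and 0.11 (-0.09 to 0.31). Its CD201- range spanned both others only through replicate 3 (124.7 CPM), since replicates 1 and 2 (103.4 and 94.9 CPM) lay below every CD201+ library. Without CD201- replicate 3, Bmi1 had 0.25 (adjusted p = 0.00585) in CD201+CD48- and 0.14 (adjusted p = 0.143) in CD201+CD48+ against CD201- cells.

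The Pcgf subunits distinguish the forms of PRC1, and of Pcgf2, Pcgf3, Pcgf5 and Pcgf6 only Pcgf5 passed a test. It was at 38.1, 31.8 and 41.2 CPM in CD201+CD48-, 48.2, 45.2 and 44.4 in CD201+CD48+ and 33.4, 30.6 and 43.6 in CD201- libraries, so that CD201+CD48+ cells were highest. The log2 fold change of CD201+CD48+ against CD201- cells was 0.36 ± 0.13 (SE, adjusted p = 0.0499), and 11 of 17 alternatives lost this call, 8 of them by leaving out a library other than CD201- replicate 3. Without CD201- replicate 3 it was 0.52 with an adjusted p of 1.69e-04, and the range over the alternatives was 1.69e-04 to 0.182. Pcgf2, Pcgf3 and Pcgf6 had values of 0.50 (95% interval 0.05 to 0.94, adjusted p = 0.0608), 0.14 (-0.05 to 0.32) and -0.14 (-0.40 to 0.11) in CD201+CD48- against CD201- cells. Pcgf2 passed in that comparison without CD201- replicate 3 (0.64, adjusted p = 0.0059).

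The 3 PR-DUB genes gave no call and had narrow intervals. Bap1 is the deubiquitinase, and Asxl1 and Asxl2 are its alternative cofactors. Asxl1 was at 214.3, 215.5 and 231.6 CPM in CD201+CD48-, 247.7, 222.4 and 224.2 in CD201+CD48+ and 219.3, 217.1 and 250.3 in CD201- libraries. Asxl2 was at 193.5 to 204.8, 193.1 to 217.7 and 198.3 to 208.9 CPM and Bap1 at 92.5 to 104.2, 92.1 to 101.8 and 92.1 to 101.4 CPM. All group ranges overlapped. Of 3 genes, 0 passed in each comparison, against 48.1%, 29.1% and 15.4% of all genes. The outermost bounds of their 95% intervals were -0.24 and 0.19 on the log2 scale (medians -0.04, 0.01 and -0.05). No PR-DUB call appeared without CD201- replicate 3, against 51.7%, 36% and 30% of all genes.

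**Figure D3:**
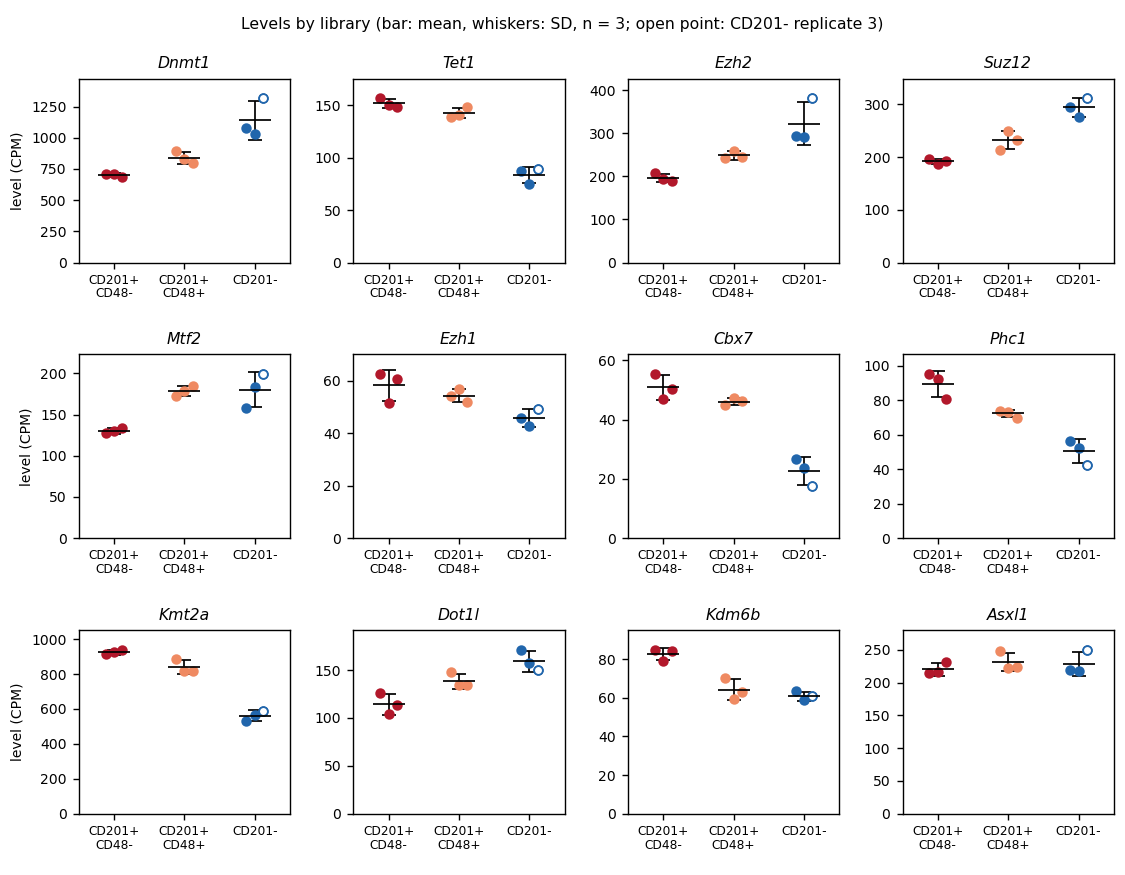
Level in CPM (y axis, from 0) of 12 of the regulators in each library, by population (x axis), with the mean and SD of 3 replicates and CD201- replicate 3 as an open point. Tet1, Cbx7, Phc1 and Kmt2a are lowest in CD201- libraries, Dnmt1, Ezh2, Suz12 and Dot1l are lowest in CD201+CD48- libraries, Mtf2 is low and Kdm6b high in CD201+CD48- libraries, and the Asxl1 groups overlap.

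Among the lysine methyltransferase genes Kmt2a was higher and Dot1l, Setdb1, Nsd1, Ehmt1 and Suv39h1 lower in CD201+CD48- against CD201- cells, the last 2 by calls that most alternatives lost. This is 1 of 11 higher and 5 lower (median -0.13), against 24.2% and 23.9% of all genes. In CD201+CD48+ against CD201- cells 1 was higher and 0 lower (median -0.10, with 14.8% and 14.3% of all genes), and between the CD201+ populations 0 were higher and 1 lower (median -0.05, with 9.05% and 6.31%). These counts were 1 and 4, 2 and 3, and 1 and 3 without CD201- replicate 3. The shares of all genes were then 25.6% and 26%, 18% and 17.9%, and 15.4% and 14.5%. Kmt2a (chromosome 9, 44803355 to 44881352), which keeps Hox genes active in HSCs, was at 911.7, 924.2 and 939.2 CPM in CD201+CD48-, 888.4, 815.5 and 815.0 in CD201+CD48+ and 530.5, 565.0 and 589.5 in CD201- libraries. Both CD201+ groups lay far above CD201- cells and did not overlap each other. The log2 fold changes were 0.72 ± 0.08 (SE, 1.65-fold, adjusted p = 3.15e-06) and 0.58 ± 0.08 (1.49-fold, adjusted p = 7.16e-05) against CD201- cells, and 0.14 (95% interval -0.03 to 0.31, adjusted p = 0.271) between the CD201+ populations.

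The relatives Kmt2b, Kmt2c and Kmt2d, which also methylate histone H3 at active genes and enhancers, did not pass in any comparison. In CD201+CD48- against CD201- cells their log2 fold changes were -0.01 (95% interval -0.17 to 0.15), 0.01 (-0.17 to 0.18) and -0.10 (-0.29 to 0.09). In CD201+CD48+ cells they were -0.07 (-0.23 to 0.09), 0.06 (-0.12 to 0.24) and -0.14 (-0.33 to 0.05). The upper bounds of all 6 intervals lay below the lower bounds of Kmt2a, 0.55 and 0.41, in the same comparison. Without CD201- replicate 3, Kmt2c (0.15, adjusted p = 0.0318) and Kmt2d (-0.17, adjusted p = 0.0304) passed in CD201+CD48+ against CD201- cells. Men1, the cofactor that tethers Kmt2a, had -0.13 (-0.31 to 0.05) and -0.18 (-0.35 to -0.00, adjusted p = 0.12).

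Dot1l, the only known methyltransferase for its site in the core of histone H3, was lower in CD201+CD48- cells. It was at 125.7, 103.8 and 113.4 CPM in CD201+CD48-, 147.6, 134.0 and 134.1 in CD201+CD48+ and 171.3, 157.1 and 149.7 in CD201- libraries. The 3 groups did not overlap, in the reverse order of Kmt2a. Its log2 fold changes were -0.48 ± 0.09 (SE, adjusted p = 3.16e-04) in CD201+CD48- and -0.20 (95% interval -0.38 to -0.02, adjusted p = 0.085) in CD201+CD48+ against CD201- cells, and for CD201+CD48- against CD201+CD48+ cells -0.27 ± 0.09 (adjusted p = 0.0421). The last call was lost without CD201+CD48- replicate 2 or 3 or any one CD201+CD48+ library, with library size alone, with a minimum count of 30 and in DESeq2 (adjusted p from 8.38e-04 to 0.187 over the alternatives).

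The other genes that fell place repressive or transcription-coupled methyl marks. Setdb1, which silences transposable elements, was at 101.7, 86.2 and 86.8 CPM in CD201+CD48-, 110.9, 108.5 and 111.0 in CD201+CD48+ and 127.7, 130.0 and 106.9 in CD201- libraries, with a log2 fold change of -0.40 ± 0.09 (SE, adjusted p = 0.00191) in CD201+CD48- against CD201- cells. Nsd1, a methyltransferase of transcribed regions, was at 515.7, 505.1 and 474.5, then 589.4, 592.3 and 585.5, then 571.0, 571.0 and 661.8 CPM in the same order, with -0.27 ± 0.08 (adjusted p = 0.0126), lost without CD201+CD48- replicate 3. Scaling by library size alone ended both calls. For both genes the CD201+CD48- libraries lay below all others. Between the CD201+ populations Setdb1 had -0.26 (95% interval -0.46 to -0.07, adjusted p = 0.0651) and Nsd1 -0.24 (-0.41 to -0.07, adjusted p = 0.059).

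Ehmt1 and Suv39h1, writers of the heterochromatin mark on histone H3, were lower by the least secure calls. Ehmt1 was at 167.4, 156.6 and 163.6 CPM in CD201+CD48-, 183.2, 173.5 and 171.6 in CD201+CD48+ and 172.2, 182.7 and 206.7 in CD201- libraries. Its log2 fold change of -0.20 ± 0.08 (SE, adjusted p = 0.0463) in CD201+CD48- against CD201- cells was lost in 15 of 17 alternatives, 8 of them single libraries left out (all but CD201- replicate 1), with adjusted p from 0.0192 to 0.749. Suv39h1 was at 16.4 to 19.7, 17.8 to 23.4 and 19.1 to 28.8 CPM, so the groups overlapped. Its value of -0.42 ± 0.17 (adjusted p = 0.0482) was lost in 13 of 17 alternatives, 7 of them single libraries left out (all but CD201+CD48+ replicate 1 and CD201- replicate 3), and was -0.56 without CD201- replicate 3, with adjusted p from 0.00103 to 0.263 over the alternatives. Ehmt2, the partner of Ehmt1, did not pass, at -0.03 (95% interval -0.20 to 0.14) and -0.10 (-0.27 to 0.07) against CD201- cells.

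Of the lysine demethylases, 2 of 7 (28.6%) were higher and 0 lower in CD201+CD48- against CD201- cells (median -0.08), a higher share near the 24.2% of all genes. In CD201+CD48+ against CD201- cells 1 of 7 (14.3%) was higher (median -0.02), near the 14.8% of all genes, and in CD201+CD48- against CD201+CD48+ cells 1 of 7 (median -0.01, 9.05% of all genes). The counts were the same without CD201- replicate 3, when 25.6%, 18% and 15.4% of all genes were higher and 26%, 17.9% and 14.5% lower. Kdm6b, which removes the PRC2 mark, was at 84.9, 79.1 and 84.4 CPM in CD201+CD48-, 70, 59.3 and 63.1 in CD201+CD48+ and 63.3, 58.7 and 60.7 in CD201- libraries. CD201+CD48- cells were above both other groups, which overlapped. The log2 fold change of CD201+CD48- cells was 0.44 ± 0.09 (SE, adjusted p = 5.82e-04) against CD201- and 0.37 ± 0.08 (adjusted p = 0.00761) against CD201+CD48+ cells, the second reaching an adjusted p of 0.0503 without CD201+CD48+ replicate 2 (1.32e-04 to 0.0503 over the alternatives). CD201+CD48+ against CD201- cells gave 0.08 (95% interval -0.11 to 0.26, adjusted p = 0.544). Kdm6a, which removes the same mark, had 0.02 (-0.14 to 0.18), 0.04 (-0.11 to 0.20) and -0.03 (-0.19 to 0.13).

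Kdm5b, which removes an active mark from promoters, was at 182.0, 178.1 and 170.0 CPM in CD201+CD48-, 163.3, 168.2 and 171.4 in CD201+CD48+ and 133.2, 125.7 and 151.4 in CD201- libraries. The CD201+ groups overlapped each other and lay above CD201- cells. Its log2 fold changes were 0.37 ± 0.08 (SE, adjusted p = 0.00122) and 0.29 ± 0.08 (adjusted p = 0.0111) against CD201- cells, the second lost without CD201+CD48+ replicate 3 or CD201- replicate 2. Its relative Kdm5a did not pass, at 338.3 to 366.4, 348.7 to 384.0 and 363.8 to 488.7 CPM and -0.21 (95% interval -0.43 to 0.01, adjusted p = 0.104) in CD201+CD48- against CD201- cells; its highest library was CD201- replicate 3. Kdm1a (LSD1), Kdm2b and Kdm4a had -0.11 (-0.28 to 0.07), -0.08 (-0.27 to 0.11) and -0.08 (-0.23 to 0.08) in that comparison.

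The 3 acetyltransferases gave 0 calls in each comparison, against 48.1%, 29.1% and 15.4% of all genes, with medians of 0.03, -0.01 and 0.05. Crebbp, a coactivator required in HSCs, was at 433.1, 429.3 and 398.5 CPM in CD201+CD48-, 429.7, 370.2 and 390.9 in CD201+CD48+ and 353.0, 357.6 and 410.9 in CD201- libraries, with 0.17 (95% interval -0.01 to 0.35, adjusted p = 0.12) and 0.09 (-0.10 to 0.27) against CD201- cells. Its paralogue Ep300 had 0.03 (-0.12 to 0.19) and -0.02 (-0.17 to 0.14). Kat6a, whose CD201- libraries were at 343.3, 320.4 and 459.6 CPM, had -0.04 (-0.28 to 0.20) and -0.01 (-0.25 to 0.23). All their ranges overlapped between groups. Without CD201- replicate 3, 1 of 3 was higher in CD201+CD48- and 2 of 3 in CD201+CD48+ cells against CD201- cells. Over all genes 25.6% and 18% were then higher.

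Several of these genes stand for the same step in different forms, so levels per length (CPM per kb of the canonical transcript) were compared within sets of paralogues. Dnmt1 had the highest level per length of the 50 members in each population, at 118.1, 141.9 and 192.4 CPM per kb in CD201+CD48-, CD201+CD48+ and CD201- cells, followed by Ezh2 at 63.8, 80.5 and 104.5. Cbx8 was lowest, at 1.08, 1.13 and 1.34. Ezh1 made up 18%, 16.2% and 18.9% of the summed Ezh1 and Ezh2 level in CD201+CD48-, 14.1%, 13.7% and 13.4% in CD201+CD48+ and 10.1%, 9.61% and 8.58% in CD201- libraries. The groups did not overlap, and Ezh2 was the larger share in every library.

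The other shares ran in step with single members described above. Tet1 was 20.5% ± 0.229, 19.4% ± 1.03 and 11.4% ± 1.56 (SD, n = 3) of the Tet level in CD201+CD48-, CD201+CD48+ and CD201- cells, and Kmt2a was 42.4% ± 0.809, 40.2% ± 0.357 and 30.2% ± 0.631 of the Kmt2a to Kmt2d level. Cbx7 was 60.8% ± 3.57, 58.9% ± 3.27 and 44.1% ± 4.98 of the level of Cbx2, Cbx6, Cbx7 and Cbx8, and Phc1 34.2% ± 1.39, 31.8% ± 1.02 and 26.2% ± 1.17 of the Phc level. Dnmt1 was 61.7% ± 0.298, 65.2% ± 0.633 and 72.5% ± 2.25 of the Dnmt level. Of 18 differences between groups, 17 reached p = 0.1 in a two-sided exact permutation test, the smallest p that 3 against 3 libraries allow (adjusted p = 0.106 over the 18), and that of Cbx7 between the CD201+ populations had p = 0.5, so this design cannot place any of them under 0.05.

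**Figure D4:**
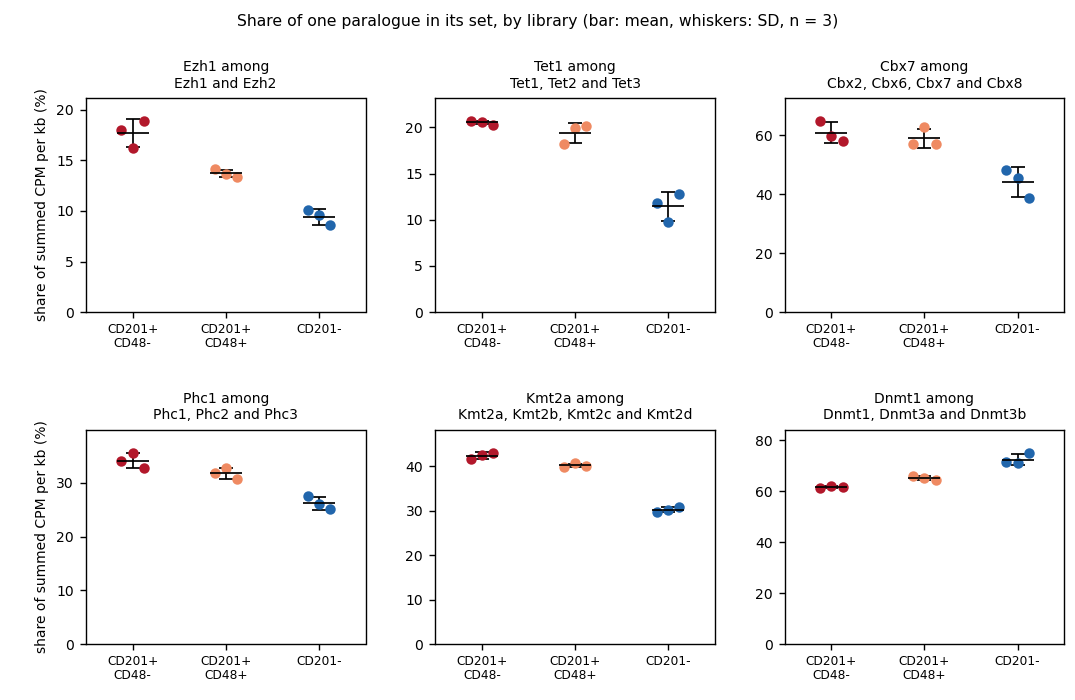
Share in percent (y axis, from 0) of one paralogue in the summed level per length of its set, in each library by population (x axis), with the mean and SD of 3 replicates. The Ezh1, Tet1, Cbx7, Phc1 and Kmt2a shares are lowest in CD201- libraries, at 9.44%, 11.4%, 44.1%, 26.2% and 30.2% on average, and the Dnmt1 share is highest there at 72.5%.

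Other genes of the same pathways numbered 107 among those tested. In CD201+CD48- against CD201- cells 15 were higher and 39 lower (median -0.11), against 24.2% and 23.9% of all genes. In CD201+CD48+ against CD201- cells there were 11 and 23 (median -0.08, with 14.8% and 14.3% of all genes), and between the CD201+ populations 3 and 9 (median -0.05, with 9.05% and 6.31%). The called share of 50.5% in the first comparison was near the 48.1% of all genes, and that of 31.8% in the second near 29.1%. Without CD201- replicate 3 the counts were 22 and 36, 20 and 25, and 7 and 18. All genes then gave 25.6% and 26%, 18% and 17.9%, and 15.4% and 14.5%. By pathway, the first comparison gave 2 higher and 6 lower of 14 DNA methylation genes, 6 and 12 of 31 Polycomb genes, 3 and 11 of 31 methyltransferase genes, 1 and 4 of 16 demethylase genes and 3 and 6 of 15 acetyltransferase genes. Uhrf1, which guides Dnmt1 to replicated DNA, had log2 fold changes of -0.74 ± 0.08 (SE, adjusted p = 1.45e-06) and -0.32 ± 0.08 (adjusted p = 0.00479) against CD201- cells, with levels of 226.1 to 229.2, 287.6 to 327.0 and 365.9 to 403.2 CPM. These ranges did not overlap and had the same order as those of Dnmt1. Zbtb4, a reader of methylated DNA, was higher by 1.51 ± 0.14 (adjusted p = 6.32e-07) and 1.09 ± 0.15 (adjusted p = 5.69e-05), and Apex1, a base excision repair enzyme, lower at -0.67 ± 0.12 (adjusted p = 1.97e-04) and -0.51 ± 0.11 (adjusted p = 0.00328).

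In the Polycomb list the 3 genes with the smallest p were the PRC1 subunit Yaf2, at -0.78 ± 0.10 (SE, adjusted p = 1.50e-05) in CD201+CD48- against CD201- cells, and Scml2 and Scml4 of the Scm family. Scml2 was at 9.3 to 11.7, 7.7 to 9.26 and 3.32 to 3.66 CPM and Scml4 at 18.7 to 22.1, 15.5 to 16.7 and 7.67 to 10.3 CPM in CD201+CD48-, CD201+CD48+ and CD201- libraries. Both were higher in CD201+CD48+ than in CD201- cells, by 1.23 ± 0.22 (adjusted p = 7.43e-04) and 0.89 ± 0.16 (adjusted p = 6.52e-04) on the log2 scale, and in CD201+CD48- cells too (adjusted p = 3.56e-05 and 1.61e-05). Among the methyltransferase genes Mllt3, a partner of Dot1l complexes known for HSC maintenance, was at 170.0, 168.0 and 169.2 CPM in CD201+CD48-, 84.7, 97.9 and 91 in CD201+CD48+ and 44.5, 41.5 and 53.3 in CD201- libraries. Its log2 fold changes were 1.86 ± 0.09 (adjusted p = 6.93e-10), 0.97 ± 0.10 (adjusted p = 2.92e-06) and 0.89 ± 0.09 between the CD201+ populations (adjusted p = 4.61e-06), while those of Dot1l were negative. Kmt5a, whose mark on histone H4 is tied to the cell cycle, was lower at -0.82 ± 0.09 (adjusted p = 3.86e-06), and Ash1l, a further activating methyltransferase, higher at 0.40 ± 0.08 (adjusted p = 4.43e-04).

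The demethylase Kdm7a was higher in CD201+CD48- against CD201- cells at 0.89 ± 0.15 (SE, adjusted p = 1.83e-04), and Rcor1, which holds Kdm1a in its complex, lower at -0.31 ± 0.08 (adjusted p = 0.00307). Phf8 passed in CD201+CD48+ against CD201- cells, at -0.30 ± 0.09 (adjusted p = 0.018). The acetyltransferase scaffold Brpf3 and the nuclear receptor coactivator Ncoa1 were higher in CD201+CD48- cells at 0.56 ± 0.08 (adjusted p = 6.61e-05) and 0.68 ± 0.11 (adjusted p = 1.12e-04), and Ncoa3 lower at -0.48 ± 0.09 (adjusted p = 5.07e-04).

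Of 14 tested genes that Polycomb or Kmt2a are known to control, 6 were higher and 3 lower in CD201+CD48- against CD201- cells (median 0.76), against 24.2% and 23.9% of all genes. In CD201+CD48+ against CD201- cells there were 5 and 2 (median 0.21, with 14.8% and 14.3% of all genes), and between the CD201+ populations 3 and 0 (median 0.22, with 9.05% and 6.31%). Without CD201- replicate 3 the counts were 8 and 3, 6 and 2, and 4 and 0. All genes then gave 25.6% and 26%, 18% and 17.9%, and 15.4% and 14.5%. Hoxa10 was at 15.7, 15.2 and 17.5 CPM in CD201+CD48-, 12.3, 13.6 and 14.3 in CD201+CD48+ and 3.76, 3.87 and 3.07 in CD201- libraries, with log2 fold changes of 2.17 ± 0.19 (SE, adjusted p = 2.86e-07) and 1.91 ± 0.19 (adjusted p = 3.89e-06) against CD201- cells. Hoxa9, at 56.6 to 66, 44.3 to 56.1 and 29.5 to 32.4 CPM, had 0.96 ± 0.11 (adjusted p = 4.74e-06) and 0.69 ± 0.11 (adjusted p = 2.96e-04). Cdkn2a, the locus whose silencing by Polycomb is best known, had summed counts of 4, 0 and 1 in CD201+CD48-, CD201+CD48+ and CD201- cells, too few to test.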

How the data were processed

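Gene counts of 9 libraries (read length 36 nt, paired) were used as the authors deposited them, whole numbers per gene symbol and not normalized; per the submitters' processing notes the genome build was mm10. The aligner, the counter, the annotation and whether strand was used: not given in the sources used here. Of the 50 genes, 23 overlap another annotated gene, so their counts are less certain. The table holds 3 further columns of per-sample values that were not used.

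Samples were grouped by their treatment labels. Genes were filtered with filterByExpr (minimum count 10), scaled by TMM and tested in edgeR 4.0.16 (R 4.3.3; quasi-likelihood F test, robust, 9 samples in one fit), with Benjamini-Hochberg adjustment over all 11619 tested genes and a threshold of 0.05. Levels (CPM) use library sizes scaled by TMM; lengths are those of canonical transcripts of GENCODE M39. Coordinates and promoters are from RefSeq, GRCm38.p6. The procedure was tested on simulated data. Alternatives were other scalings, filters and fits, DESeq2 1.42.0, limma-voom 3.58.1 and leaving out each library. Figures used matplotlib 3.10.9.

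Members and gene lists were chosen with earlier results of these data known. Full values are given for up to 5 members per role, and up to 3 genes per other list are named, by smallest p in any comparison. Other members are given by range and interval. One gene that this rule names is not reported here.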

Additional observations from a re-analysis of the deposited data

How the results depend on the processing

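Each comparison was recomputed under 17 alternatives. In CD201+CD48- against CD201- cells 13 of the 19 calls among the members held in all of them, in CD201+CD48+ against CD201- cells 8 of 11, and between the CD201+ populations 1 of 6 (Mtf2). Scaling by library size alone gave 19 higher and 5 lower members in the first comparison and 12 higher in the second, with all genes split 3974 higher to 1685 lower and 2701 to 851. Between the CD201+ populations, fitting those groups alone gave 4 higher and 8 lower members, no filter on low counts 7 lower, and DESeq2 1 higher. Over all genes these settings gave 1763 higher and 1576 lower of 11527, 966 lower of 21720, and 860 higher of 12877. Leaving out single libraries gave 8 to 13 higher and 6 to 10 lower members in the first comparison, 4 to 12 and 4 to 8 in the second, and 0 to 4 and 1 to 8 in the third. The fewest lower members in the first comparison (6) came without CD201+CD48- replicate 3, the fewest higher in the second (4) without CD201+CD48+ replicate 3, and the most in the second (12 and 8) and in the third (4 and 8) without CD201- replicate 3; in the third, every CD201+ library left out moved a count by over 1.5 times. Kat6a in CD201+CD48+ against CD201- cells reversed from -0.01 to 0.17 (adjusted p = 0.021) without CD201- replicate 3, with values of -0.11 to 0.17 over the libraries left out; the cause was not tested.

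Replicate numbers did not pair the samples: deviations from the group means correlated at -0.113 to 0.045 between same-numbered libraries of different groups and at -0.072 to 0.1 between others. With the replicate block the counts were 9 higher and 8 lower, 7 and 4, and 2 and 2 members. Of all 11619 genes, 2690 and 2632, 1566 and 1472, and 872 and 569 were then higher and lower. The calls lost were those of Ehmt1 and Suv39h1 in the first comparison and of Ezh2 and Suz12 between the CD201+ populations. Members with few counts, Cbx8 above all, have intervals too wide to show differences of the size seen elsewhere.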
